A study of Mus musculus with 18 samples.

Results

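Lum, Dcn, Eln, Fn1, Postn, Tnmd, Egfl6, Lox, Fbn1 and Srpx encode proteins of the extracellular matrix that are not collagens. They were taken as a named list and read from probe sets that the platform annotation gives a single gene symbol. Such a probe set was found for 9 of the 10 genes, among 19938 genes measured on 18 arrays. Fbn1, which encodes the microfibril protein fibrillin-1, had none and was not analysed here. The genes were chosen by their levels on these same arrays, mainly by being lower in embryonic fibroblasts (MEFs) after 4-hydroxytamoxifen (4-OHT) or doxycycline (dox). The fibroblast differences below are therefore a description of how the genes were chosen, and they carry no test.

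Fibroblasts build the matrix of connective tissue from collagen fibrils, elastic fibres and adhesive glycoproteins, and small proteoglycans coat the fibrils and limit their width. Elastin (Eln) is laid down on microfibrils of fibrillin and is crosslinked by the copper enzyme lysyl oxidase (Lox), which also crosslinks collagen. Wnt signalling acts through beta-catenin, which Apc keeps low, and it is known to change matrix gene expression in fibroblasts in a way that depends on the cell.

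The study asked whether reprogrammed colon tumour cells (RTCs, tumour cells taken back to a pluripotent-like state) resemble pluripotent stem cells, and what Apc mutation or induced mutant beta-catenin does in different cell types. RNA from each sample was hybridised to 1 Affymetrix Mouse Gene 1.0 ST array. All values below are log2 intensities after the 18 arrays were quantile normalized together, a scale on which the median probe set of every array lies at 7.93 and the highest at 14.47. A value under the median is called dim here, and levels of different genes are not set against each other because each comes from its own probe set.

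The stem cell arrays were 3 RTC lines, 2 derived lines (#45, made from RTC#1, and #9, made from RTC#3), 1 array each of Apc Min/Min, Apc Min/+ and Apc +/+ embryonic stem cells (ESCs), and S33 ESCs with and without dox. Min is a truncating Apc allele. MEFs derived from #45 were read with 4-OHT on 2 arrays and without it on 2, the titles numbering them as 2 pairs, and S33 MEFs on 1 array with dox and 1 without. Small intestinal organoids derived from #45 were read on 1 array with 4-OHT and 1 without. The 4-OHT dose was 2 ug/ml for MEFs and 1 uM for organoids, each for 2 days. The labels give no dose or time for dox, name neither the gene that 4-OHT acts on nor the meaning of S33, and do not say whether replicate arrays came from separate cultures. The p-values thus measure the spread between these arrays. By title each RTC, derivative and ESC array is of a different line or genotype, so that spread includes differences between lines. Between the replicate MEF arrays it may be technical. All #45-derived MEFs and organoids come from that single derivative line. The growth text lists the medium for stem cells, and it does not mention feeder fibroblasts.

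Cell identity was checked with marker lists. All 10 fibroblast markers (Col1a1, Pdgfra, Thy1 and others) were above the array median on all 6 MEF arrays, where their mean level was 12.04 to 12.64. At most 1 of 8 pluripotency markers passed the median there. On the 10 stem cell arrays 8 of 8 pluripotency markers passed it, and so did 7 to 10 of the 10 fibroblast markers, at mean levels of 8.84 to 10.84. Organoids had 8 of 8 epithelial markers above the median and 3 (with 4-OHT) or 6 (without) fibroblast markers. Myeloid markers, 8 of 8 above the median, summed to 26201 and 27914 (linear intensity, with and without 4-OHT) in the first MEF pair, against 3647 and 4347 in the second pair and 1090 and 1114 (with and without dox) in S33 MEFs. In bulk RNA, fewer cells of a type and less RNA per cell cannot be told apart.

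The matrix genes were, with 1 exception, brightest in fibroblasts. In the 3 MEF arrays without 4-OHT or dox, 8 of the 9 genes were above all 12 stem cell and organoid arrays; across all genes the share that did this was 17.9%. Egfl6 was the one that did not. Lum, Eln, Fn1, Postn and Lox stayed above the other cell types on all 6 MEF arrays, treated ones included, which 15.8% of all genes did. The list was drawn up as fibroblast genes with levels on these arrays known. Both counts therefore describe the choice, and nothing is read from them. The mean level of untreated MEFs over the 10 stem cell arrays was 11.4-fold for Dcn and 10.72-fold for Postn. Lum averaged 11.94 in untreated MEFs, against 6.85 in stem cells, and Tnmd 10.02, against 6.64. No fold is given for these genes, since Lum was dim on 7 and Tnmd on all 10 of the stem cell arrays. The fold was 1.7 for Fn1, whose transcript was bright in stem cells as well. In organoids 7 of the genes, all but Eln and Fn1, were dim on both arrays, at 5.02 to 7.29.

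**Figure D1:**
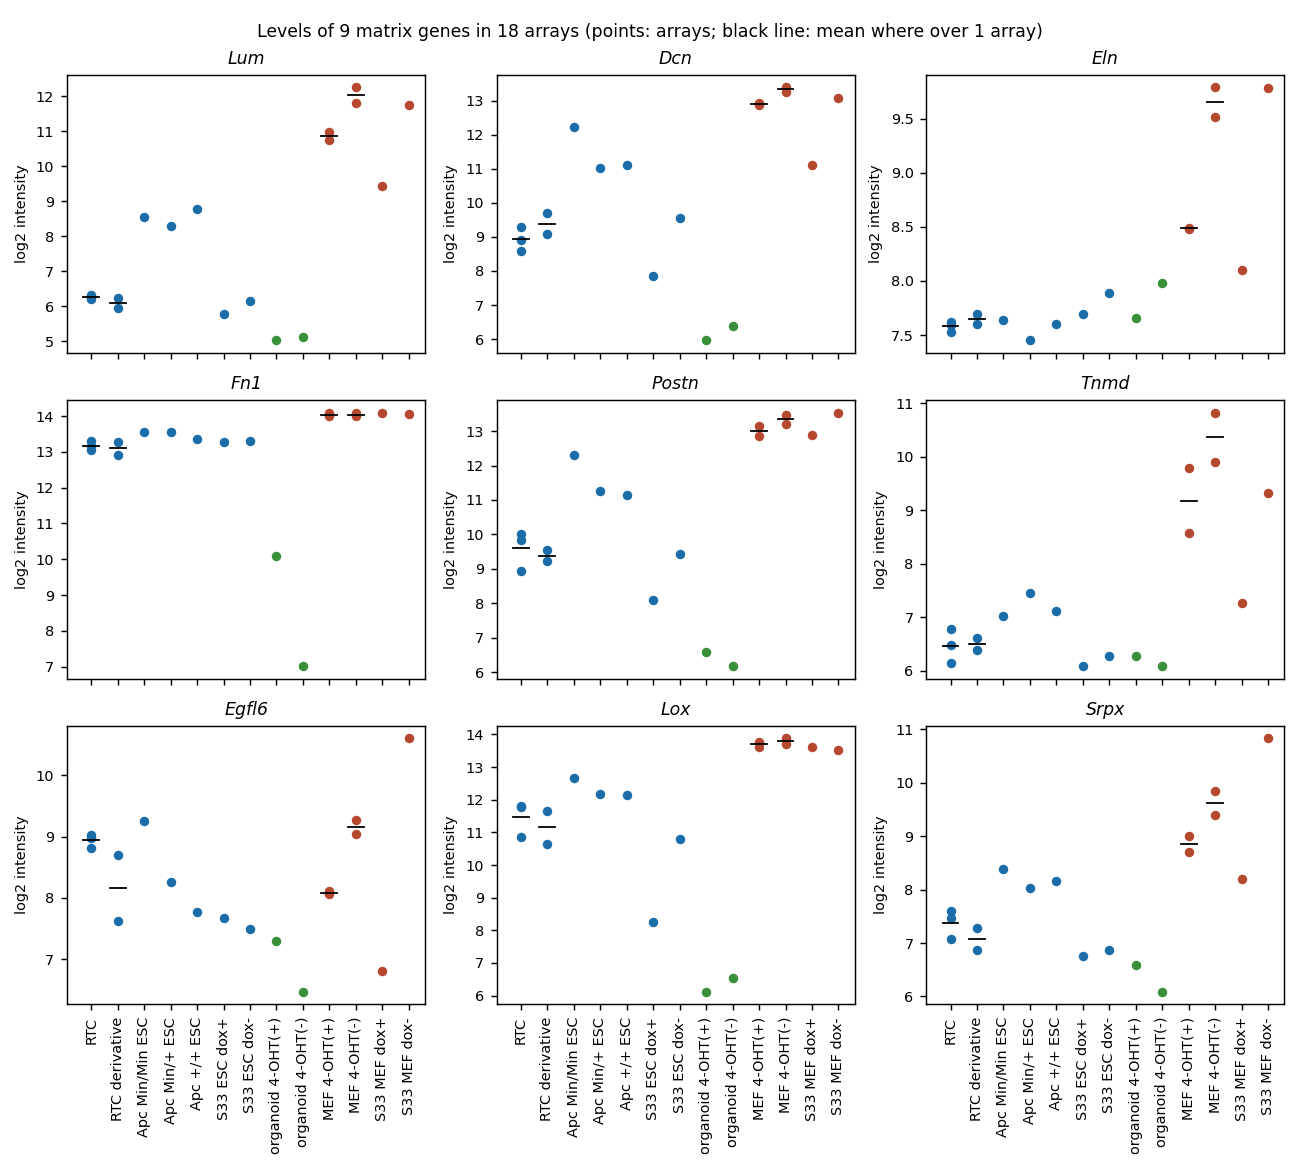
Level of each of the 9 matrix genes on all 18 arrays, in log2 quantile-normalized intensity, with the array groups side by side and each treated group left of its untreated one. MEF arrays lie highest for Lum, Eln, Fn1, Postn and Lox, and organoids lie below the array median of 7.93 except for Fn1 with 4-OHT (10.1) and Eln without it (7.98).

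Lumican (Lum) and decorin (Dcn) are small leucine-rich proteoglycans that bind collagen fibrils, and decorin also binds TGF-beta. Lum stood at 10.75 and 10.99 in MEFs with 4-OHT, against 11.81 and 12.26 in MEFs without it. In S33 MEFs Lum was at 9.43 with dox, against 11.75 without. Both treated groups lay wholly under their untreated arrays, by a mean of 2.25-fold with 4-OHT (10.87 ± 0.17 against 12.04 ± 0.32, SD, n = 2 each) and by 5.01-fold with dox. Dcn was at 12.89 and 12.94 with 4-OHT, against 13.4 and 13.27 without, and at 11.1 with dox, against 13.07 without. Its 4-OHT difference was thus small, 1.34-fold, and its dox difference was 3.9-fold.

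In the elastic fibre, Eln and Lox parted. Eln was at 8.48 and 8.49 in MEFs with 4-OHT, against 9.79 and 9.51 without, and at 8.1 in S33 MEFs with dox, against 9.78 without. The 2 treated #45 arrays nearly coincided, and the differences were 2.24-fold with 4-OHT and 3.2-fold with dox. Lox, the enzyme that crosslinks elastin, was at 13.77 and 13.63 with 4-OHT, against 13.88 and 13.72 without, and at 13.62 with dox, against 13.52 without. The Lox groups overlapped with 4-OHT, and neither difference went past 1.07-fold. These Lox levels are near the highest value on the scale, 14.47, and those of Eln are not.

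Fibronectin (Fn1), the glycoprotein on which cells assemble much of their early matrix, had nearly the same level in all MEFs. It was at 14.09 and 13.99 with 4-OHT, against 14.09 and 13.99 without, and at 14.09 with dox, against 14.05 without. These levels are close to the highest value on the scale, 14.47. Periostin (Postn), a matricellular protein that binds fibronectin and collagen, was at 13.15 and 12.86 with 4-OHT, against 13.47 and 13.21 without, and at 12.89 with dox, against 13.53 without. Its groups did not overlap, but the differences were 1.26-fold with 4-OHT and 1.55-fold with dox.

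Tenomodulin (Tnmd) is a membrane glycoprotein typical of tendon cells, Egfl6 a secreted protein with EGF repeats and an integrin-binding motif, and Srpx a secreted protein with sushi repeats. Tnmd was at 8.57 and 9.78 in MEFs with 4-OHT, against 9.91 and 10.82 without, and at 7.26 in S33 MEFs with dox, against 9.32 without. Both pairs ran the same way, but the second pair was higher on both of its arrays, so the treated array of pair 2 came close to the untreated array of pair 1. The mean 4-OHT difference of Tnmd, -1.19, became -0.58 without the treated array of pair 1 and -1.79 without that of pair 2. Its dox difference was 4.18-fold, over an array with dox on which Tnmd was dim.

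Egfl6 was at 8.06 and 8.11 in MEFs with 4-OHT, against 9.04 and 9.27 without, and at 6.81 in S33 MEFs with dox, against 10.6 without. The 4-OHT groups were tight and apart, 2.1-fold. The dox difference, 13.7-fold, was the widest among the 9 genes, and 0.01% of the 11390 genes compared there had a lower difference. Egfl6 was dim with dox, so the size of that fold is uncertain. Srpx was at 8.71 and 9 with 4-OHT, against 9.4 and 9.84 without, and at 8.2 with dox, against 10.83 without. Its groups did not overlap with 4-OHT (1.7-fold), and the dox difference was 6.19-fold.

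RefSeq promoter windows (GRCm38.p6) were at hand for 5 of the 10 genes: Egfl6, Fbn1, Postn with 2 starts, Srpx and Tnmd. The 250 bases before the start are shown for Tnmd, Egfl6 and Srpx, which were lower with both treatments in fibroblasts, and for the second start of Postn, whose differences were smaller. Each reads 5′ to 3′ on the gene's strand, and capitals mark a TATA core (TATAAA or TATATA) or a Tcf/Lef core (CTTTGA or CTTTGT).
Tnmd, chrX:133850758-133851007, plus strand: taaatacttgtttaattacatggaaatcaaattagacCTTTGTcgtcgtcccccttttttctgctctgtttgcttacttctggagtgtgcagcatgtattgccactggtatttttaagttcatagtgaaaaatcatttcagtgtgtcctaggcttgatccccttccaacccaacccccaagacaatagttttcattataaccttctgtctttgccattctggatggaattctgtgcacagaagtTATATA
Egfl6, chrX:166585717-166585966, minus strand: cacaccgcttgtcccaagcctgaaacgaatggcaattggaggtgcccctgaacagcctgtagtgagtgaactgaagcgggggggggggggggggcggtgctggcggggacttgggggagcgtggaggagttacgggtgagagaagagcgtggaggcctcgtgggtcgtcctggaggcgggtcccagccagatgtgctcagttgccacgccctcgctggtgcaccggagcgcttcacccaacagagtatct
Srpx, chrX:10117641-10117890, minus strand: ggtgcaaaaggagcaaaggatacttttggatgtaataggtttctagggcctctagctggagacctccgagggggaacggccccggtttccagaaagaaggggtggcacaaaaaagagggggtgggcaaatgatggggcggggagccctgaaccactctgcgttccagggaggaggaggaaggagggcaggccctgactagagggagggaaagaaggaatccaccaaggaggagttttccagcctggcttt
Postn, chr3:54360857-54361106, plus strand: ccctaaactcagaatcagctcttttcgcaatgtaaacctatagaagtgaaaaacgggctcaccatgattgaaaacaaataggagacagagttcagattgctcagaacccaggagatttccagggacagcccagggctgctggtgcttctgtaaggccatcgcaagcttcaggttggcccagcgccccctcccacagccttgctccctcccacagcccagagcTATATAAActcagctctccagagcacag
In Tnmd the capitals are a Tcf/Lef core at base -213 and a TATA core at base -6 from the start, and in Postn overlapping TATA cores at -28 and -26. The windows of Egfl6 and Srpx hold neither. Both strands were searched. A TATA core lies in 15.6% of all 32851 promoter windows of this length and a Tcf/Lef core in 27.6%. The TEAD core GGAATG (12.6% of windows) and the AP-1 site TGANTCA (6.75%) were found in none of the 6 windows of these genes. The E-box CANNTG (66.2%) was found in Egfl6 at -218, -63 and -53 and in Srpx at -125. These matches describe the letters only. Base composition differed, with 64.8% G and C in Egfl6, 56.8% in Srpx, 52% in Postn and 38.4% in Tnmd.

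Of the 9 genes, 7 (all but Fn1 and Lox) lay lower on both 4-OHT arrays than on both untreated MEF arrays, against 14.9% of the 11603 genes compared. By mean, 4 of 9 (Lum, Eln, Tnmd and Egfl6) were at least 2-fold lower, which was true of 0.147% of all genes. Ranked from the lowest difference, Tnmd was 5, Lum 6, Eln 7, Egfl6 11 and Srpx 57 of 11603. Pair by pair, 3 of 9 were at least 2-fold lower in the first (0.168% of all genes) and 4 of 9 in the second (0.294%). The median difference of the 9 genes was -0.76 and that of all genes 0. With dox, 6 of 9 were at least 2-fold lower in S33 MEFs, against 3.71% of the 11390 genes compared, and the median difference of the 9 genes was -1.97, against 0.04 over all genes. Taking the treatments together, 7 of 9 were lower in both 4-OHT pairs and also with dox, as were 14.8% of all genes. These counts restate the choice of the list, and nothing is read from them. In all, 7 genes of 12004 (0.0583%) were at least 2-fold lower both by mean with 4-OHT and with dox: Egfl6, Eln, Lum and Tnmd from the list, and Mest, Olfml1 and Serpina3n.

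**Figure D2:**
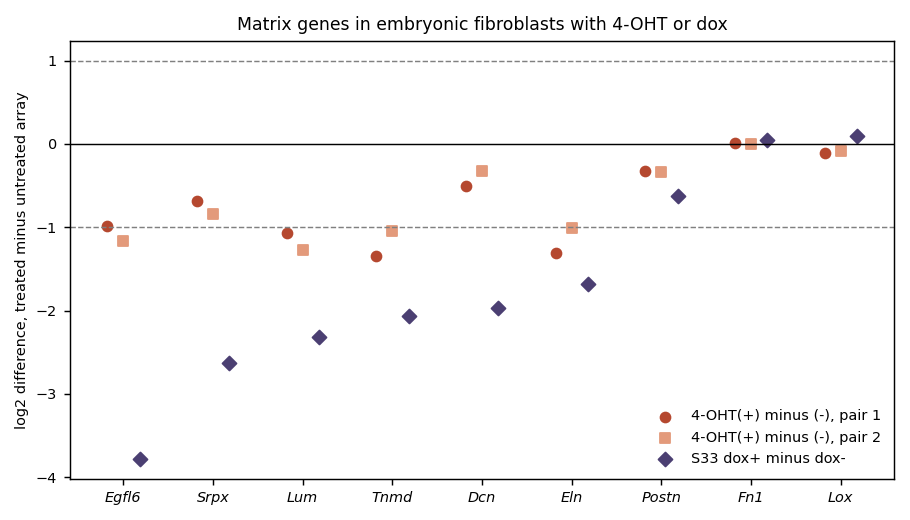
Difference in log2 level, treated minus untreated array, for each matrix gene in the 2 MEF pairs with 4-OHT (circles and squares) and in S33 MEFs with dox (diamonds); dashed lines mark 2-fold. In all, 7 genes lie below 0 in all 3 comparisons, from Egfl6 at -3.78 with dox to Postn at -0.32 in the first 4-OHT pair, while Fn1 and Lox lie near 0.

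Across all genes, limma called 0 of 11603 with 4-OHT in these MEFs at an adjusted p under 0.05, with 519 at an unadjusted p under 0.05. Axin2, a direct Wnt target, was at 8.53 and 8.81 with 4-OHT, against 8.55 and 8.63 without, and at 11.27 with dox in S33 MEFs, against 8.6 without. Its 4-OHT groups overlapped, and the array with dox was higher. Nkd1, also a Wnt target and singled out after its values were seen, was at 9.29 and 9.11 with 4-OHT, against 9.91 and 9.9 without, and at 12.1 with dox, against 9.83 without. It lay lower with 4-OHT, with no overlap, and higher with dox. The fibroblast markers averaged 12.16 and 12.04 with 4-OHT, against 12.42 and 12.31 without, and 12.54 with dox, against 12.64 without. Smooth muscle markers, 5 of 5 above the median throughout, summed to 30421 and 23447 with 4-OHT, against 38545 and 31028 without, and to 47995 with dox, against 38175 without. With dox, skeletal muscle markers summed to 2532, against 4029 without (1 of 3 at least 2-fold lower), and adipocyte markers to 1022, against 1949 (1 of 2). The part of any of these markers in the lower matrix gene levels was not tested.

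Other matrix genes were followed through 7 lists of 119 names. With 4-OHT, limma called 0 of the 104 measured, and 1 was at least 2-fold lower by mean: Aspn (asporin, a relative of decorin), by -1.03. The 8 measured small leucine-rich proteoglycans other than Lum and Dcn had a median difference of -0.56, and 5 of 8 were lower. Among all genes, 5675 of 11331 were lower in the first pair and 5438 of 11235 in the second, with a median by mean of 0. The lists were chosen with earlier results known, so their counts are a description and nothing is read from them. Lower by mean were 22 of 25 matricellular and basement membrane genes (median -0.22) and 13 of 16 elastic fibre genes (-0.15). So were 9 of 10 crosslinking enzymes (-0.14), 7 of 8 tendon and cartilage genes (-0.38), 17 of 23 matrix receptors (-0.1) and 9 of 14 TGF-beta pathway genes (-0.05). With dox in S33 MEFs, 9 of 102 were at least 2-fold lower and 9 at least 2-fold higher, where all genes gave 3.71% lower and 2.5% higher. The lower ones included microfibril genes, namely Fbn2 (fibrillin-2) at 10.15 with dox, against 12.58 without, and Mfap4 at 10.85, against 12.64. Mfap5, also a microfibril gene, was higher at 11.35 with dox, against 10.04 without. Srpx2, the relative of Srpx, went the other way from it, at 12.59 with dox, against 11.42 without. None of the 10 crosslinking enzymes measured there was 2-fold apart.

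The genes were next compared among the stem cell arrays, whose contrasts did not choose the genes, although their levels there were known. RTCs (3 lines) were set against the ESCs that were neither Apc Min/Min nor given dox. These were Apc +/+, Apc Min/+ (with 1 truncating allele) and S33 without dox. The filter passed 7 genes, and Eln and Tnmd were dim on all of these arrays. Limma called 1 of the 7, Egfl6, and 6.69% of all 12080 genes (3.21% higher and 3.48% lower). Egfl6 was at 9.02, 8.98 and 8.82 in RTCs, against 7.77 (Apc +/+), 8.26 (Apc Min/+) and 7.49 (S33) in ESCs. It was higher in RTCs by 1.1 ± 0.2 (SE, limma, adjusted p = 0.0223). Egfl6 was dim in Apc +/+ and S33 ESCs, so the size of the difference is uncertain. The call held in 2 of the 6 fits that left out 1 array and was lost without RTC#1 (adjusted p = 0.064), RTC#2 (0.0799), RTC#3 (0.0768) or Apc +/+ ESCs (0.0751), with a difference of at least 1.06 in each. Axin2 on the same arrays was at 10.57, 10.44 and 10.41 in RTCs, against 8.41, 8.61 and 9.14 in the ESCs, and Nkd1 at 8.45, 8.69 and 9.08, against 8.15, 8.37 and 9.08, with overlap.

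The other 6 genes tested had lower means in RTCs than in ESCs, none past the test, and the 3 ESC arrays did not share a level. Lum was at 6.19, 6.31 and 6.27 in RTCs, against 8.77 and 8.28 in Apc +/+ and Apc Min/+ ESCs and 6.15 in S33 ESCs. Dcn was at 9.29, 8.92 and 8.59 in RTCs, against 11.1, 11.02 and 9.56 in those ESCs. Postn was at 8.94, 10.02 and 9.83 in RTCs, against 11.15, 11.26 and 9.43. S33 ESCs thus sat beside the RTCs and apart from the other ESC lines for Lum and Postn. With all arrays, Dcn differed by -1.63 ± 0.41 (SE, limma, adjusted p = 0.06), Lum by -1.48 ± 0.6 (adjusted p = 0.189) and Postn by -1.02 ± 0.51 (adjusted p = 0.273), none past the test. Lum was dim in all 3 RTC lines and entered the test through the Apc +/+ and Apc Min/+ ESCs alone, so its difference is that of a dim group. Without S33 ESCs, limma called Dcn (-2.13, adjusted p = 0.00189), Postn (-1.61, adjusted p = 0.0203) and Egfl6 (0.93, adjusted p = 0.0206). The Dcn and Postn calls thus depend in part on that single array. Lum was past the limma threshold there too (-2.27, adjusted p = 0.000704). Nothing is read from that call, since Lum entered through the arrays where it is bright. Calls rose among all genes as well, to 1170 (467 higher and 703 lower), against 808 (388 higher and 420 lower) with all arrays. With S33 ESCs kept, Dcn was also called by limma on the values as deposited (adjusted p = 0.00314) and under 3 more alternatives. On the values as deposited Lum was called too (limma, adjusted p = 0.0265), with the same limit. The fibroblast markers averaged 9.65, 10.31 and 10.18 in RTCs, against 10.78 and 10.84 in Apc +/+ and Apc Min/+ ESCs and 9.5 in S33 ESCs. Smooth muscle markers summed to 8565 to 11762 in RTCs, against 14067 to 17243 in ESCs (2 of 4 called lower by limma), epithelial markers to 10522 to 15581, against 16605 to 21123 (1 of 7 called higher), and myeloid markers to 7330 to 13141, against 4333 to 6192 (2 of 6 called higher). Their part in these differences was not tested.

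Lox, Srpx and Fn1 did not pass the test between RTCs and ESCs. Lox was at 10.86, 11.8 and 11.78 in RTCs, against 12.16, 12.17 and 10.81 in the same order of ESCs, a difference of -0.23 ± 0.41 (SE, limma, adjusted p = 0.779). Srpx was at 7.08, 7.6 and 7.47 in RTCs, against 8.16, 8.03 and 6.87 in ESCs. It was dim in all 3 RTC lines and entered the test through the Apc +/+ and Apc Min/+ ESCs alone. Its difference is thus that of a dim group. Fn1 was at 13.05, 13.3 and 13.15 in RTCs, against 13.37, 13.54 and 13.31. The Lox and Srpx groups overlapped. The Fn1 difference was -0.24 ± 0.13 (SE, limma, adjusted p = 0.323).

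**Figure D3:**
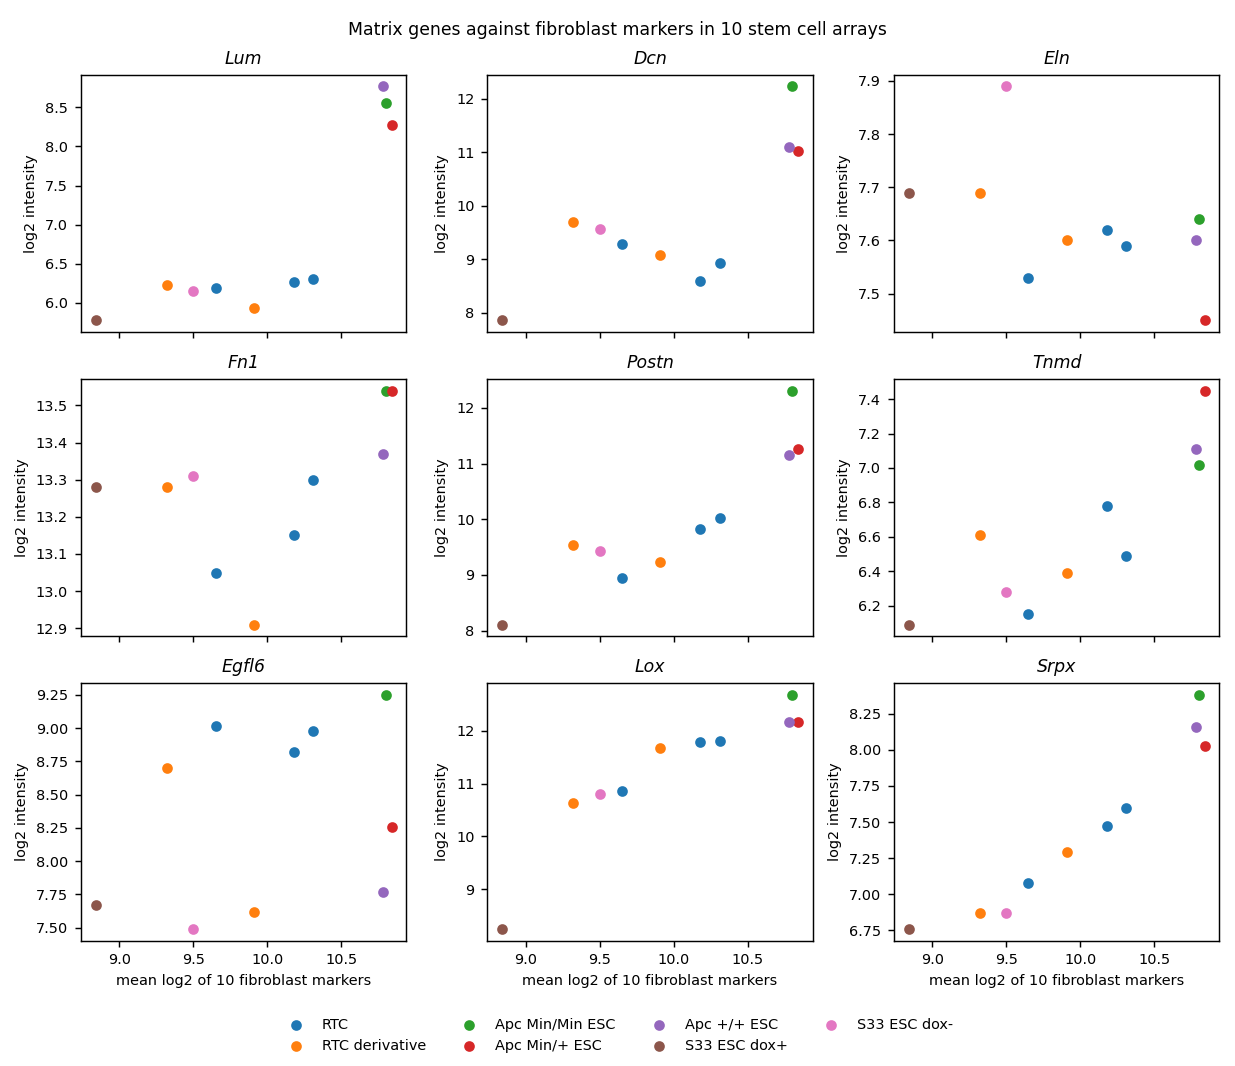
Level of the matrix genes on the 10 stem cell arrays, in log2 quantile-normalized intensity, against the mean log2 level of the 10 fibroblast markers. Each point is 1 array. Pearson r with that mean was 0.96 for Srpx, 0.91 for Lox, 0.9 for Postn, 0.84 for Lum and 0.75 for Dcn. It was 0.47 for Fn1 and 0.31 for Egfl6, and 0.85 for Tnmd and -0.54 for Eln, both dim on all 10 arrays. The part of the markers in these levels was not tested. For Egfl6 the RTCs (8.82 to 9.02) and Apc Min/Min ESCs (9.25) lie above the other ESCs, and for Lum the 3 Apc-typed ESC lines (8.28 to 8.77) lie above the RTCs, derivatives and S33 ESCs (5.78 to 6.31).

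Between RTCs and their derivatives, 5 genes passed the filter and limma called 0 of them, against 1.6% of 11940 genes. Egfl6 was at 9.02, 8.98 and 8.82 in RTCs, against 7.62 in derivative #45 and 8.7 in derivative #9, a difference of 0.78 ± 0.31 (SE, limma, adjusted p = 0.315). Derivative #45 alone lay in the ESC range. Leaving out a derivative leaves that arm with 1 array, assumed to vary like the RTCs: the difference was 1.32 (limma, adjusted p = 0.0494) without #9 and 0.24 (adjusted p = 0.456) without #45. Derivatives against ESCs gave 0 of 7 genes, and 0% of all 11941 genes were called by limma, with 1012 at an unadjusted p under 0.05. Lum and Srpx were dim in both derivatives and entered through the Apc +/+ and Apc Min/+ ESCs alone. Lum was at 5.94 and 6.23 in derivatives #45 and #9, and Dcn at 9.08 and 9.69, both near the RTC levels. These 3 comparisons share arrays, and their values are given side by side.

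A pair of stem cell contrasts had 1 array an arm and no replicate check. In S33 ESCs, 4 genes passed the filter and 3 were at least 2-fold lower with dox, against 2.18% of 11254 genes. Lox was at 8.25 with dox, against 10.81 without, Dcn at 7.86, against 9.56, and Postn at 8.11, against 9.43. Fn1 was at 13.28 with dox, against 13.31 without, and Lum, Eln, Tnmd, Egfl6 and Srpx were dim on both arrays. The Lox difference of 5.89-fold was among the widest of all genes there, with 0.05% of them lower. Dcn was dim with dox, so the size of its difference is uncertain. Markers moved on the same pair of arrays: smooth muscle markers summed to 2602 with dox, against 14067 without (4 of the 4 that passed the filter were at least 2-fold lower), the 10 fibroblast markers to 10439, against 16449 (3 of 9 at least 2-fold lower), and the epithelial markers to 14488, against 21123 (3 of 7). Their part in the lower matrix gene levels was not tested. Of 78 other matrix genes, 16 were at least 2-fold lower and 4 higher (0.986% of all genes were higher), the lower ones including Tnc (tenascin-C, 9.93 with dox against 12.24 without), Fbln2 (9.16 against 10.94) and Bgn (biglycan, 11.53 against 12.85).

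In Apc Min/Min ESCs against Apc +/+ ESCs, 7 genes passed the filter, 3 were at least 2-fold higher and 0 were 2-fold lower, where 4.6% of 11390 genes were higher and 5.65% lower. Egfl6 was at 9.25 in Apc Min/Min ESCs, against 7.77 in Apc +/+ ESCs (2.79-fold), Postn at 12.31, against 11.15 (2.24-fold), and Dcn at 12.23, against 11.1 (2.2-fold). Egfl6 was dim in Apc +/+ ESCs, so it entered through the Apc Min/Min array alone and the size of its fold is uncertain. On the values as deposited Dcn differed by 0.99 and 2 genes were past 2-fold. Lum, Lox, Srpx and Fn1 differed by less than 2-fold. Of 96 other matrix genes, 12 were at least 2-fold higher, including Lama1 (12.19 against 9.31) and Itga11 (10.72 against 8.63). At least 2-fold lower were 2, Efemp1 (9.98 against 11.36) and Ccn5 (9.06 against 10.14). Axin2 was at 10.9 in Apc Min/Min ESCs, against 8.41 in Apc +/+ ESCs, and Nkd1 at 8.61, against 8.15. The fibroblast markers summed to 30506 in Apc Min/Min ESCs, against 29564 in Apc +/+ ESCs (1 of 10 at least 2-fold higher and 1 lower). The myeloid markers summed to 8075, against 6192 (3 of 5 were at least 2-fold higher). Epithelial markers summed to 23219, against 17011 (2 of 7 at least 2-fold higher). Their part in the matrix gene differences was not tested. The growth text also describes a trophoblast stem cell medium for Min/Min cells, and it does not say whether the array came from cells in it. With 1 array an arm, these differences have no error.

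**Figure D4:**
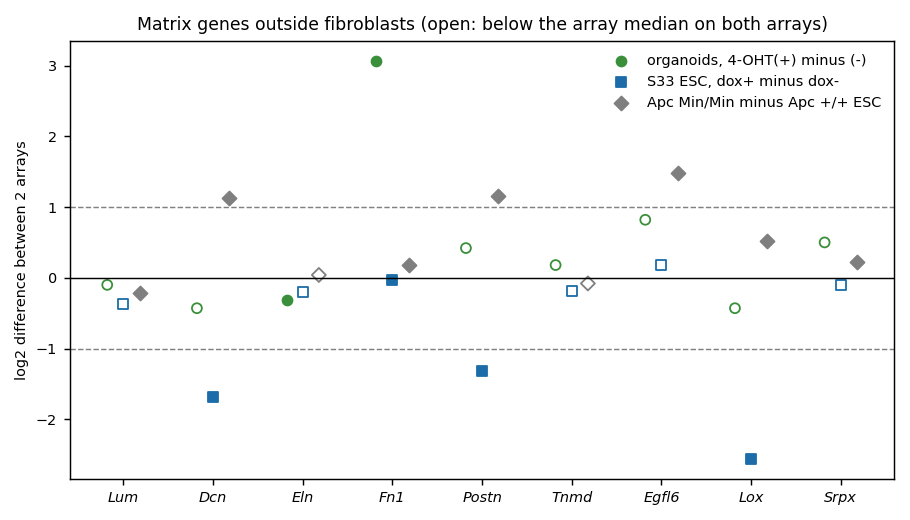
Difference in log2 level between 2 arrays for each matrix gene in organoids (4-OHT(+) minus 4-OHT(-)), S33 ESCs (dox+ minus dox-) and ESCs (Apc Min/Min minus Apc +/+); open symbols are genes dim on both arrays and dashed lines mark 2-fold. Fn1 stands at 3.07 in organoids, and Lox at -2.56, Dcn at -1.69 and Postn at -1.32 in S33 ESCs.

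In organoids 2 of the 9 genes passed the filter. Fn1 was at 10.1 with 4-OHT, against 7.02 without, a difference of 8.41-fold between single arrays, and 2.1% of 11397 genes were at least 2-fold higher. The Fn1 array without 4-OHT was dim, so the fold rests on a value under the array median. Its log2 difference was 3.07, and it was 2.59 on the values as deposited and 3.21 with arrays centred on their median, while the median of all genes moved to -0.22 and 0.4 under these scalings. Eln was at 7.66 with 4-OHT, against 7.98 without. The remaining 7 genes gave 5.02 to 7.29 with 4-OHT, against 5.12 to 6.55 without, all dim on both arrays, and no difference is read from them.

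Of 60 other matrix genes measured in the organoids, 9 were at least 2-fold higher with 4-OHT and 0 were 2-fold lower, where 2.1% of all genes were higher and 0.746% lower. The rest were within 2-fold. The median difference was 0.67 for matricellular and basement membrane genes, 0.4 for matrix receptors, 0.33 for TGF-beta pathway genes and 0.19 for elastic fibre genes. It was 0.04 for proteoglycans, 0.03 for crosslinking enzymes and -0.26 for tendon and cartilage genes, against 0 over all genes. Those higher included Thbs1 (thrombospondin-1, 11.83 with 4-OHT against 9.66 without), Prelp (12.27 against 10.43), Efemp1 (8.67 against 6.41), Plod2 (a lysyl hydroxylase of collagen, 9.19 against 7.76), Ccn2 (10.34 against 8.9) and Tgfb3 (8.75 against 6.34). Fibroblast markers summed to 5024 with 4-OHT, against 3451 without, while their mean log2 level was 7.89, against 8.09. Vim, which is on that list, was at 11.71 with 4-OHT, against 10.18 without, and 3 of 10 markers were above the median with 4-OHT, against 6 of 10 without. Their part in the Fn1 difference was not tested. Axin2 was at 11.81 with 4-OHT, against 11.3 without, and Nkd1 at 11.03, against 8.95.

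Over all 18 arrays, the profiles most like each gene were sought by Pearson correlation, a measure that here mainly follows the cell types the arrays share. Postn was most like Thbs2 (r = 0.996, n = 18), Lox most like Igfbp7 (r = 0.994) and Lum most like Dpt, the gene of dermatopontin, a matrix protein that binds decorin (r = 0.981). Dcn was most like Postn (r = 0.971). For Fn1 the second nearest gene was Vim (r = 0.974). Egfl6 had no gene above r = 0.777 (Spon2), the lowest best match among the 9. For the mean profile of the 9 genes, the nearest outside the list were S1pr3 and Igfbp6 (both r = 0.968) and Vcan, the large proteoglycan versican (r = 0.964).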

How the data were processed

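Each of the 18 samples was read on 1 single-colour array. The deposited values are linear intensities of 28856 probe sets (3 of them empty); the authors' background correction, probe summary and scaling are not given in the sources used here. Deposited medians ran from 142 to 317, and some arrays shared identical values (17.3% of probe sets for Apc +/+ and Apc Min/Min ESCs, 9.52 to 19.2% among derivative #9 and the second MEF pair, at most 0.104% otherwise). Therefore the 18 arrays were quantile normalized as a single set on the log2 scale, and the values as deposited were kept as an alternative.

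Exactly 1 symbol was given to 21789 probe sets, several to 1621 and none to 5443; 21698 matched the RefSeq table (GRCm38.p6) by Entrez identifier and no symbol changed. Of several probe sets, a gene was given that of highest mean; all 9 matrix genes had 1. A gene entered a comparison if above the array median (percentile 50) on at least 1 array compared. Replicated comparisons used limma 3.58.1 in R 4.3.3 (lmFit, eBayes without trend, two-sided) with Benjamini-Hochberg adjustment over all genes tested and a threshold of 0.05; errors are SE from that fit or SD. Contrasts with 1 array an arm have no test, and genes at least 2-fold apart were counted. The procedure was tested on simulated data. The number of arrays limits the precision.

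The genes and the other lists were chosen with earlier results of these data known. Named were all listed genes, of the 7 matrix lists the 3 largest rises and falls past the test or 2-fold, the nearest profiles and Axin2; the text gives a selection of them. Derivatives #45 and #9 pair with RTC#1 and RTC#3 by line of origin, per the labels; the MEF pairs share only a number. Alternatives were the scalings, the filter, the mean of probe sets, a variance trend, 1 fit over all arrays, a replicate block and leaving out each array.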

Additional observations from a re-analysis of the deposited data

Results flagged for a closer look

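For Lox and Fn1, differences with dox had opposite signs in S33 ESCs and S33 MEFs, but both S33 MEF differences were close to 0. Lox differed by 0.1 in S33 MEFs (13.62 with dox, against 13.52 without), where the median of all genes was 0.04. Those Lox levels are near the highest value on the scale, 14.47. In S33 ESCs Lox differed by -2.56 (8.25 with dox, against 10.81 without). Fn1 differed by 0.05 in S33 MEFs and by -0.03 in S33 ESCs, both close to 0. Each value comes from 1 array an arm, and neither difference between the cell types was tested.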

How the results depend on the processing

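No result changed direction past a threshold under any alternative run. RTCs against ESCs gave 808 called genes (388 higher) and 1 called matrix gene. On values as deposited they gave 358 genes (213 higher) and 3 matrix genes (Dcn, Egfl6 and Lum). With arrays centred on their median they gave 867 genes (272 higher) and 2 matrix genes, and a variance trend and 1 fit over all arrays gave 2 each, Dcn and Egfl6 in all 3 cases. Leaving out 1 array gave 234 to 1170 genes and 0 to 4 matrix genes. Lum, dim in all 3 RTC lines, was among the 3 on values as deposited and the 4 without S33 ESCs. Nothing is read from those Lum calls. RTCs against derivatives gave 191 genes, 81 on values as deposited, 561 in 1 fit over all arrays, and 33 to 383 genes with 0 to 1 matrix genes on leaving out 1 array. Derivatives against ESCs gave 0 genes, 11 on values as deposited and 90 in 1 fit over all arrays. The cause of these shifts was not tested. Matrix genes at least 2-fold apart numbered 3 in the first MEF pair (4 as deposited, 2 median-centred), 4 in the second (3 median-centred) and 3 in Apc Min/Min against Apc +/+ ESCs (2 as deposited). Egfl6 in RTCs against ESCs had an adjusted p of 0.0195 to 0.0799 over all alternatives.

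With line of origin as a replicate block, RTCs against derivatives gave 232 genes and still 0 matrix genes. The number in the MEF titles as a replicate block gave 148 called genes with 4-OHT, against 0 without the block and 0 on leaving out any 1 array; the deviations of same-numbered MEF arrays correlated at 0.851 across 12004 genes, with only 2 pairs. The block was not used for the matrix genes, which were chosen on that contrast.

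Limits are few arrays, 1 array an arm in 4 of the contrasts, and dim signal: in organoids 7 of 9 matrix genes were under the array median, on both arrays, where a fall could not be read.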

Other observations

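Lum lies next to Dcn, Kera and Epyc in the RefSeq gene order (GRCm38.p6). Kera (keratocan) and Epyc (epiphycan) are small leucine-rich proteoglycans as well, and they were singled out after their values were seen. Both were dim on all 18 arrays, Kera at 5.38 to 6.77 and Epyc at 5.66 to 6.93, including the MEF arrays on which Lum and Dcn were bright.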
